A study of Homo sapiens with 12 samples.

Results

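CAD is 1 gene of the 543 that a library of paired sgRNAs repressed in K562 cells, and it is described here through every construct that carries a CAD sgRNA in either position. Interaction scores, described below, used constructs that averaged at least 30 reads over the 4 T0 libraries. This held for 4394 of the 4560 CAD constructs (96.4%), against 1267355 of 1301881 constructs in the whole library (97.3%). Summed counts of single genes and of partners beside CAD used all constructs, whatever their T0 reads. CAD was chosen by its growth and niraparib values in these same libraries, so its own values in those contrasts are a description without a test, and tests are given for its partners and for other genes.

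K562 is a human chronic myelogenous leukemia line, and these K562 cells carried the machinery of CRISPR interference, in which a dead Cas9 fused to a repressor shuts off transcription where an sgRNA directs it. The library held 1141 sgRNAs, 2 for each of 543 genes and 55 that target nothing, joined in all ordered pairs. It was run in 2 screens, 2023 and 2022, each with 2 replicate cultures transduced at low multiplicity and selected with puromycin. Each culture gave a T0 sample on day 9 after transduction and was then split into a niraparib arm and a reference arm with the vehicle DMSO, which made 12 libraries in 6 groups of 2. Niraparib inhibits PARP1 and PARP2, enzymes that sense breaks in DNA. In 2023 the drug was dosed at 2 µM, raised to 3 µM from day 2, and removed after 4 days, with harvest of both arms on day 19. In 2022 it was dosed at 2 µM and removed after 3 days, with harvest on day 18. Every value is from sgRNA cassettes amplified by PCR from genomic DNA, without molecular identifiers named. Repression of CAD itself was not measured, and fewer divisions and more cell loss cannot be told apart in pooled counts.

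CAD encodes a single long protein with the activities that begin de novo pyrimidine synthesis: carbamoyl-phosphate synthetase 2, aspartate transcarbamylase and dihydroorotase. Its product, dihydroorotate, is oxidised by DHODH in the inner mitochondrial membrane, which passes the electrons to ubiquinone, and UMPS then makes UMP, the parent of the other pyrimidine nucleotides. Proliferating cells need these nucleotides for RNA, DNA, sugar-linked intermediates and membrane lipids, and can also salvage uridine from outside.

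The labels name the CAD sgRNAs by the coordinates 27440253 and 27440373, both marked "+", 120 bases apart. They are called the first and the second sgRNA here, and the genome build behind these names is not given in the sources used here. In RefSeq's annotation of GRCh38.p14, CAD lies on chromosome 2 from 27217369 to 27243943. The 250 bases upstream of its start are shown because CRISPR interference acts at this end of a gene. Capitals mark the letters CCGCCC, a GC box read on the other strand, and the place of the sgRNAs within it was not analysed here.

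CAD upstream region, chr2:27217119-27217368 of GRCh38.p14, plus strand: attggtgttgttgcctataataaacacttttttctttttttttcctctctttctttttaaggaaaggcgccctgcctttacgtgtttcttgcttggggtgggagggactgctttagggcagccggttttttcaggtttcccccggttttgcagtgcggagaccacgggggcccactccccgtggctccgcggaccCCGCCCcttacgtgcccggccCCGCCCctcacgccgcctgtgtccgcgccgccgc

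The motif was searched as GGGCGG or CCGCCC on either strand and occurs 2 times in this window. It is common: 14973 of 35116 windows of the same length before RefSeq gene starts hold it (42.6%), and 24.3% hold it at least as often. The letters CACGTG, the E-box, occur 0 times here, and 6.34% of the windows hold them.

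Libraries held 183 to 461 megareads. Between replicate cultures, CAD construct counts differed by 2.10 to 4.58 times what counting error gives, as chi-square per degree of freedom, so an error from counts alone is too small. Values per culture are listed in the order 2023 replicate 1, 2023 replicate 2, 2022 replicate 1, 2022 replicate 2.

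Constructs that pair CAD with a non-targeting sgRNA, 220 in all, were nearly lost by the end of the reference arm. Their mean reads per construct were 14.1, 13.5, 19.3 and 17.7 under niraparib. In the reference arm they were 6.29, 5.38, 17.2 and 15.2. At T0 they were 79.4, 79.5, 96.7 and 95.4. Set against constructs with 2 non-targeting sgRNAs in the same library, CAD stood at 3.77%, 4.30%, 3.50% and 3.28% under niraparib. It stood at 1.94%, 1.79%, 2.29% and 2.25% in the reference arm, and at 38.8%, 39.0%, 31.9% and 31.6% at T0. The arms did not overlap: every niraparib value lay above every reference value, and both lay far below T0.

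CAD constructs were already scarce at T0, at a log2 level of -1.51 against non-targeting pairs, the 18th lowest of 543 genes. UMPS stood at -1.07, the 39th lowest, and the nuclear pore gene NUP62 was the lowest at -3.36. Abundance in the cloned library was not analysed here, so loss before day 9 and a low start cannot be told apart.

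**Figure D1:**
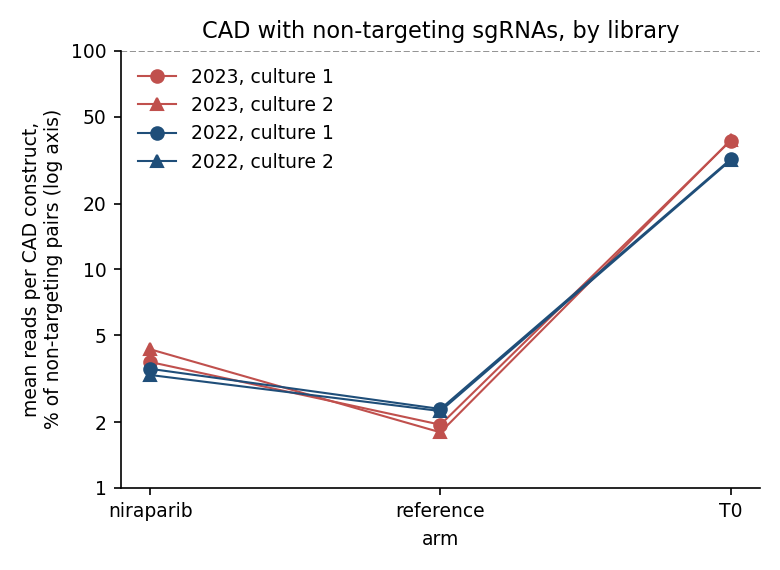
Mean reads per construct of CAD with a non-targeting sgRNA, as a percentage of constructs with 2 non-targeting sgRNAs in the same library (log axis), in the niraparib, reference and T0 arms; each line joins the 3 libraries of 1 culture, and the dashed line marks 100%. All 4 cultures have their lowest value in the reference arm, at 1.79% to 2.29%, and their highest at T0.

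Growth, the log2 change of the reference endpoint over T0, was lower for CAD than for any other gene of the library. The 4 cultures gave -4.32, -4.44, -3.80 and -3.81, a mean of -4.09 ± 0.34 (SD, n = 4), or 17.1-fold lower. The next 5 genes in this order were NOL6, a ribosomal RNA processing factor, at -3.21 ± 0.38, HJURP, the chaperone of centromeric histone, at -3.15 ± 0.21, GEMIN2 of the SMN complex at -3.06 ± 0.18, DCTN3 of dynactin at -3.01 ± 0.28 and MCM2 of the replicative helicase at -2.93 ± 0.19. The lowest culture of NOL6 (-3.61) did not reach the highest of CAD (-3.80), while each neighbouring pair among NOL6, HJURP, GEMIN2, DCTN3 and MCM2 differed by less than the SD of either. Of all genes, 85.3% passed the edgeR test of growth, 81.0% lower and 4.24% higher.

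Both sgRNAs depleted cells, the second more than the first: -4.38 ± 0.36 for the second and -3.83 ± 0.31 for the first (SD, n = 4). The second sgRNA was the lower in each of the 4 cultures. By position, the first sgRNA gave -3.73 ± 0.26 in the first place and -4.01 ± 0.41 in the second place, and the second gave -4.36 ± 0.37 and -4.40 ± 0.37. Over the 55 non-targeting partners, CAD growth ran from -4.85 to -3.49, with an SD of 0.32.

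Constructs with 2 different CAD sgRNAs were lower still, with a growth of -5.06 ± 0.02 (SD, n = 4), on summed reads of 25, 24, 33 and 25 under niraparib against 8, 8, 20 and 17 in reference. The same sgRNA in both places gave -6.01 ± 1.33, on only 1, 1, 9 and 9 reads in reference, so this value rests on single reads in 2023. Such constructs share their sgRNAs with all other CAD constructs and were not tested.

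Under niraparib, CAD-repressed cells were less depleted than in the reference arm. The change of niraparib over T0 was -3.37, -3.18, -3.19 and -3.27, a mean of -3.25 ± 0.09 (SD, n = 4), or 9.51-fold lower. This was the third lowest of 543 genes, above the homologous recombination genes BARD1 (-5.00) and BRCA2 (-3.54). The response, niraparib over reference, was 0.95, 1.26, 0.61 and 0.55, a mean of 0.84 ± 0.33, or 1.79-fold higher. All 4 cultures were above 0, and the value was the third highest after PARP1, the drug target, at 2.13 and PPP2R1A, a phosphatase scaffold, at 0.88. SHMT2 (0.83), CYB5B of the outer mitochondrial membrane (0.83) and PPP2R1A were closer to CAD than its own SD. The second sgRNA gave a response of 1.01 ± 0.39 and the first 0.70 ± 0.30, and over the non-targeting partners it ran from 0.37 to 1.74. Of all genes, 79.9% passed the edgeR test of response, 35.7% lower and 44.2% higher, and 87.7% passed for niraparib over T0, 82.1% lower and 5.52% higher.

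The sign of this response depended on the scale. The authors' deposited phenotype tables divide each log2 change by a constant of its library, which the sources used here do not name. The constants were 5.4, 4.98, 5.32 and 5.36 for niraparib over T0 and 8.04, 7.98, 7.19 and 7.73 for reference over T0. Divided by them, CAD stood at -0.617 ± 0.017 under niraparib and -0.529 ± 0.027 in reference (SD, n = 4). Brought back to the reference constant, its response was -0.69 ± 0.16 and lay below 0 in all 4 cultures. The 5 growth neighbours were also below 0 on this scale, from -0.79 for DCTN3 to -1.67 for MCM2, so CAD was the least negative of the 6. Which scale fits the cells was not tested.

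CAD growth was -4.38 on average in 2023 and -3.80 in 2022, a difference of -0.57, with both 2023 cultures below both 2022 cultures. UMPS was at -2.01 in 2023 and -1.65 in 2022 (difference -0.36, edgeR adjusted p = 0.00227, a contrast chosen after the data were seen), and 31.1% of all genes passed this contrast. The response of CAD was 1.11 in 2023 and 0.58 in 2022, a difference of 0.53, and that of UMPS 0.54 in 2023 and 0.37 in 2022, a difference of 0.17 (edgeR adjusted p = 0.196), with 0.368% of genes past the threshold. Dose, days in drug, harvest day and RNase step differ between the screens along with the year, and their parts cannot be told apart.

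Of the other genes on the de novo pyrimidine list, the library holds UMPS and COQ2, and it holds 0 of 9 salvage genes. COQ2 is not an enzyme of the pathway and acts in making ubiquinone, which takes the electrons of DHODH. UMPS, the last enzyme on the way to UMP, had a growth of -2.01, -2.01, -1.67 and -1.63, a mean of -1.83 ± 0.21 (SD, n = 4; edgeR adjusted p = 1.11e-09), the 36th lowest. Its response was 0.48, 0.59, 0.39 and 0.35, a mean of 0.45 ± 0.11 (edgeR adjusted p = 3.66e-06). Both values have the sign of CAD's in every culture. COQ2, which attaches the side chain of ubiquinone, had a growth of -1.61 ± 0.09 and a response of 0.43 ± 0.02 (edgeR adjusted p = 2.5e-09 and 5.96e-06). On the scale of the authors' constants, UMPS stood at -0.20 ± 0.09 and COQ2 at -0.14 ± 0.14 in response.

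SHMT2, which makes mitochondrial one-carbon units from serine, had a growth of -1.68 ± 0.34 and a response of 0.84 ± 0.29 (SD, n = 4; edgeR adjusted p = 1.28e-06 and 8.35e-05). SFXN1, the mitochondrial serine carrier, rose by 0.66 ± 0.21 in response, MTHFD2 by 0.64 ± 0.17, MTHFD1L by 0.36 ± 0.09, the cytosolic MTHFD1 by 0.32 ± 0.07 and PSPH, of serine synthesis, by 0.26 ± 0.06. All 6 list members in the library were lower in growth and higher in response past the threshold, against 81.0% and 44.2% of all genes. On the scale of the authors' constants SHMT2 (0.44), SFXN1 (0.32), MTHFD2 (0.35) and MTHFD1L (0.20) kept a positive response, and MTHFD1 (-0.36) and PSPH (-0.19) did not.

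Of 13 listed purine genes the library holds PRPS1, which makes the ribose donor of purines and pyrimidines. It had a growth of -0.33 ± 0.02 (0.13 under TMM scaling) and rose by 0.24 ± 0.03 in response (edgeR adjusted p = 7.35e-07 and 7.98e-06). Of 13 genes of deoxynucleotide supply it holds DNPH1 and SLFN11. DNPH1, which clears an abnormal pyrimidine deoxynucleotide, had a growth of -0.03 ± 0.03 (edgeR adjusted p = 0.496) and a response of -1.86 ± 0.10 (edgeR adjusted p = 1.53e-07), or -2.74 ± 0.09 on the scale of the authors' constants. SLFN11, which blocks stressed replication forks, stood at 0.00 in growth and -0.01 in response (edgeR adjusted p = 0.911 and 0.566).

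**Figure D2:**
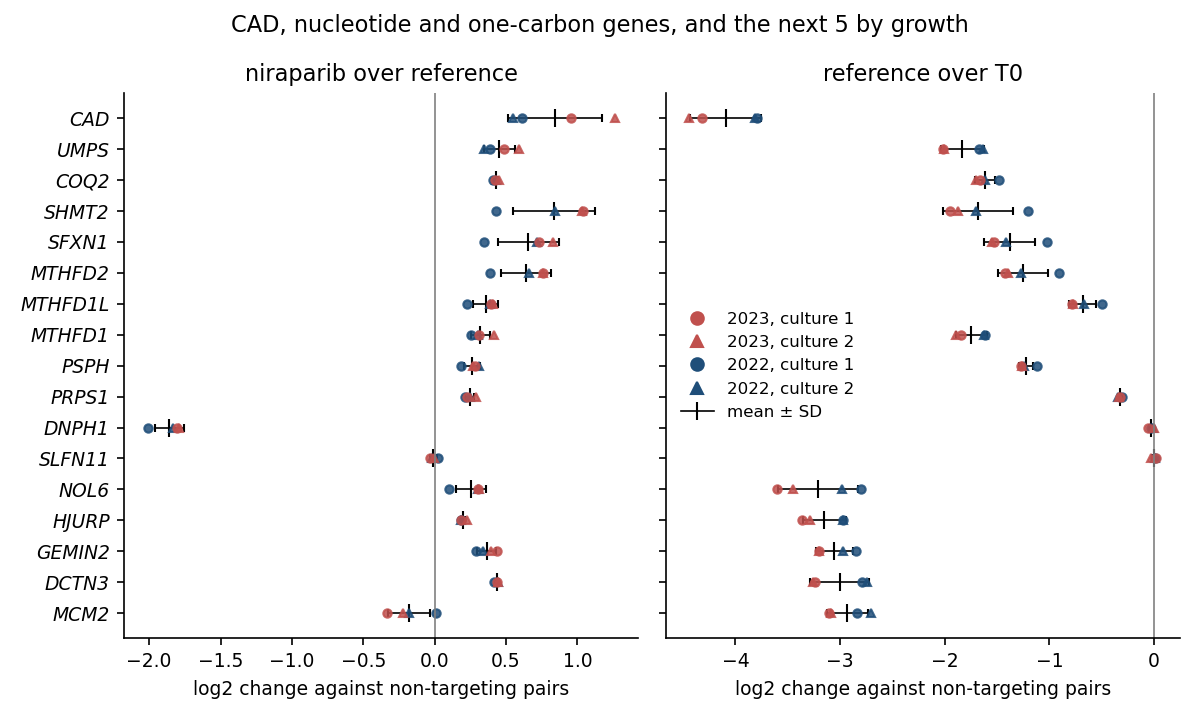
Log2 change against non-targeting pairs of CAD, genes of nucleotide and one-carbon metabolism and the next 5 genes by growth, for niraparib over reference (left) and reference over T0 (right); points are the 4 cultures and bars the mean ± SD. CAD is the farthest left in growth at -4.09, and DNPH1 alone of the plotted metabolic genes lies far below 0 in response, at -1.86.

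What a second knockdown did in cells with CAD repressed was read from constructs that pair a CAD sgRNA with each of 542 partner genes, set against CAD with non-targeting sgRNAs, so that 0 is the level of CAD repression alone. This fit and the choice of partners named from it were made after the data were seen. All partners share the same pair of CAD sgRNAs, and response and growth share the reference libraries.

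In the reference arm, most partner effects on growth were not detected at this depth on top of CAD repression. In the CAD background 21 partners were lower and 19 higher (7.38% called by edgeR, 3.87% lower and 3.51% higher), against 439 lower and 23 higher with non-targeting sgRNAs. The median partner change was -0.05 in the CAD background and -0.46 alone. Of the 31 called in both, 20 had the same direction. The test of the difference between the backgrounds passed for 56.8% of partners, 297 less depleted beside CAD than alone (54.8%) and 11 more (2.03%). NOL6 was less depleted by 2.93 on the log2 scale, HJURP by 2.66, and DNMT1, the maintenance DNA methyltransferase, by 2.20 (edgeR adjusted p = 3.76e-08, 3.02e-11 and 2.85e-09). For NOL6, 5 of 8 CAD constructs averaged under 30 T0 reads, and the part of this depth in its value was not tested.

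UMPS showed the same difference. The summed reads of CAD with UMPS were 71, 78, 147 and 111 under niraparib. They were 26, 29, 102 and 53 in reference and 491, 490, 570 and 654 at T0. Beside CAD, repression of UMPS changed growth by -0.42 ± 0.44 (SD, n = 4; edgeR adjusted p = 0.226), against -1.83 ± 0.21 alone, and the difference of 1.42 passed (edgeR adjusted p = 5.48e-06). Differences of the same sign passed for COQ2 (1.29), MTHFD1 (1.39) and SHMT2 (1.12), as they did for 54.8% of all partners. None of the 6 one-carbon genes, and neither UMPS nor COQ2, passed the growth test in the CAD background itself, where 7.38% of all partners did.

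Of the 22 homologous recombination, 14 Fanconi anemia and 4 base repair genes on the lists, 0 were lower in growth beside CAD, against 3.87% of all partners. With so few members, 0 is near that share. In the same test 1 homologous recombination gene and 1 base repair gene were higher, against 3.51% of all partners. Among the lower partners, BABAM1 of the BRCA1-A complex was at -0.74 and the nuclease scaffold SLX4 at -0.79, against -0.04 and -0.53 alone. MED19 of Mediator (-1.17), the snoRNP protein NHP2 (-0.92) and the mitochondrial single-strand binding protein SSBP1 (-0.89) were lowest, each also below 0 alone. MED19 rested on 3 reads in 1 library, 2023 replicate 1, and without it stood at -0.77 (edgeR adjusted p = 0.0806).

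The highest were NUP62 (1.37), RCC1 of nuclear transport (1.24), the mitotic kinase PLK1 (1.19) and the exon junction protein RBM8A (1.08). These are the partners with the fewest CAD constructs over the minimum of 30: 1 of 8 for NUP62, 1 of 8 for RCC1, 0 of 8 for PLK1 and 2 of 8 for RBM8A. Their summed T0 reads averaged 152, 151, 117 and 206, against 713 for BARD1, and the part of this depth in their values was not tested. The checkpoint kinase ATM was at 0.66 (edgeR adjusted p = 0.00575) on T0 reads of 586, and the polymerase POLB at 0.56 (edgeR adjusted p = 0.00575). Leaving out either culture of 2022 left 0 growth calls in the CAD background, with 83 partners without replicate 1 and 71 without replicate 2 at unadjusted p under 0.05 by edgeR.

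In response, BARD1, BRCA1, BRCA2 and POLB were lower beside CAD as well, each by less than alone, while most listed repair genes did not pass beside CAD. There, 61 partners were lower and 7 higher in the CAD background (12.5% called, 11.3% lower and 1.29% higher), against 194 lower and 239 higher alone. Values beside CAD rest on 8 constructs per partner and values alone on 220. Numbers of calls in the 2 backgrounds therefore come from tests of unlike power, and a partner that did not pass beside CAD may still have an effect there. Of 62 called in both, 45 had the same direction. The difference between the backgrounds passed for 16.6% of partners, with 63 lower (11.6%) and 27 higher (4.98%) beside CAD than alone. Leaving out 2022 replicate 1 left 7 response calls, 2022 replicate 2 left 20 and 2023 replicate 2 left 35.

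BARD1, the partner of BRCA1, was lowest. Its summed reads with CAD were 37, 24, 34 and 69 under niraparib, against 62, 39, 106 and 109 in reference and 715, 631, 773 and 733 at T0. In each culture the niraparib count was the lower of the endpoints, while CAD with non-targeting sgRNAs had more reads per construct under niraparib than in reference in every culture. The response was -1.62 beside CAD (edgeR adjusted p = 7.39e-10) and -3.66 ± 0.47 alone (SD, n = 4), and the difference of 2.04 passed (edgeR adjusted p = 1.86e-05). For BRCA1 the response was -0.83 beside CAD and -1.93 ± 0.18 alone, a difference of 1.10 (edgeR adjusted p = 0.000541).

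BRCA2, which loads the recombinase, gave -2.04, -2.001, -0.50 and -0.26 beside CAD, so the drop was mainly in 2023. Its fitted response was -1.20 (edgeR adjusted p = 1.31e-06), against -2.21 ± 0.60 alone, a difference of 1.01 (edgeR adjusted p = 0.0051). RBBP8, which starts resection of ends, was at -1.37 against -1.79 alone, and RAD54L, a recombination translocase, at -1.08 against -1.45 alone, differences that did not pass (edgeR adjusted p = 0.257 and 0.169). BARD1, BRCA2, POLB, RBBP8 and RAD54L stayed past the threshold without any single culture.

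Of the 22 homologous recombination genes on the list, 10 were lower in response beside CAD and 0 higher, with a median of -0.44, against 11.3% of all partners lower. Alone, 20 of the 22 were lower, with a median of -0.67, against 35.7% of all genes. Over all 542 partners the medians were -0.12 beside CAD and 0.01 alone. Of 14 Fanconi anemia genes, which unhook crosslinks, 3 were lower beside CAD and 14 alone, with medians of -0.32 and -0.85. With so few members, 3 of 14 is near the 11.3% of all partners. FANCA (-0.90), FANCB (-0.84) and C19orf40, also called FAAP24 (-0.66), were the 3, and FANCA did not pass without 2022 replicate 1 (-0.65, edgeR adjusted p = 0.135).

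Of the 4 genes that repair damaged bases and nicks, 3 were lower beside CAD (11.3% of all partners) and 4 alone (35.7% of all genes). POLB, the gap-filling polymerase, was at -1.12 beside CAD against -1.91 ± 0.19 alone, a difference of 0.79 (edgeR adjusted p = 0.00483). XRCC1 was at -0.75 and its ligase LIG3 at -0.59. NAMPT, the rate-limiting enzyme of NAD salvage, was at -1.09 beside CAD against -1.97 ± 0.11 alone, a difference of 0.88 (edgeR adjusted p = 0.00698). Without 2022 replicate 2 its value beside CAD was -0.94 and did not pass (edgeR adjusted p = 0.0622).

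Among the replication lists, 6 of 23 replisome genes and 3 of 11 ATR checkpoint genes were lower in response beside CAD and 0 higher, with medians of -0.39 and -0.47, against 11.3% of all partners lower. Alone, 17 and 8 were lower, with medians of -0.18 and -0.23, against 35.7% of all genes. With so few members, 3 of 11 beside CAD is near the 11.3% of all partners. The difference between the backgrounds passed on these lists for WDHD1 (1.02), RFC1 (0.98) and ETAA1 (0.65), higher beside CAD. It passed for MCM10 (-0.70) and CDC45 (-0.51), lower beside CAD. TRAIP, a ligase that acts on stalled replisomes (-0.91 beside CAD, -0.74 alone), and RIF1, a regulator of origin timing and end protection (-0.90 beside CAD, -0.55 alone), were among the 10 lowest partners. For TRAIP and RIF1 the difference did not pass (edgeR adjusted p = 0.50 and 0.29). HAUS1 of augmin was also among them (-0.92 beside CAD, 0.13 alone), a call lost whichever culture was left out. For HAUS1, 5 of 8 CAD constructs averaged under 30 T0 reads. TRAIP did not pass without 2022 replicate 1 (-0.94) or 2023 replicate 2 (-0.68), and RIF1 did not without 2022 replicate 1 (-0.71) or 2023 replicate 1 (-0.59).

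PARP1 stayed the highest partner in response. Its summed reads with CAD were 218, 304, 271 and 226 under niraparib, against 67, 38, 166 and 138 in reference and 813, 786, 927 and 892 at T0. Every niraparib count exceeded the reference count of its culture, as it also did for CAD with non-targeting sgRNAs. The response was 0.80 beside CAD (edgeR adjusted p = 1.06e-05) and 2.14 ± 0.34 alone, and the difference of -1.35 passed (edgeR adjusted p = 5.02e-05). Without 2022 replicate 1 it stood at 0.78 and did not pass (edgeR adjusted p = 0.0596).

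SHMT2 was the next highest. It had 111, 112, 133 and 120 summed reads with CAD under niraparib, against 39, 19, 86 and 62 in reference and 546, 588, 682 and 620 at T0. Its response was 0.66 beside CAD (edgeR adjusted p = 0.0237), against 0.84 ± 0.29 alone. The difference of -0.18 did not pass (edgeR adjusted p = 0.577), and the call was lost without 2022 replicate 1 (0.73), 2022 replicate 2 (0.59) or 2023 replicate 2 (0.47). UMPS was at 0.38 (edgeR adjusted p = 0.245) and COQ2 at 0.08 (edgeR adjusted p = 0.819) beside CAD. DNPH1 was at -0.51 (edgeR adjusted p = 0.0427) against -1.86 ± 0.10 alone, and that difference of 1.35 passed (edgeR adjusted p = 7.32e-05).

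The other higher partners included BABAM1 (0.64), CCAR1, a cell cycle coactivator (0.57), ADPRM, an ADP-ribose pyrophosphatase (0.54), and DENR, of translation reinitiation (0.53). For each of these 4 at least 1 left-out culture ended the call. For the whole change under niraparib over T0, 88 partners were lower and 6 higher beside CAD (17.3% called, 16.2% lower and 1.11% higher), against 445 and 30 alone. Non-targeting sgRNAs beside CAD had an SD of 0.29 in response and 0.32 in growth, the spread of partners with no target. They ran from -0.47 to 0.90 in response, a range that takes in every higher partner. In growth they ran from -0.76 to 0.60, which takes in BABAM1 and POLB. A non-targeting sgRNA is in 4 such constructs and a gene in 8, so this spread rests on fewer reads.

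**Figure D3:**
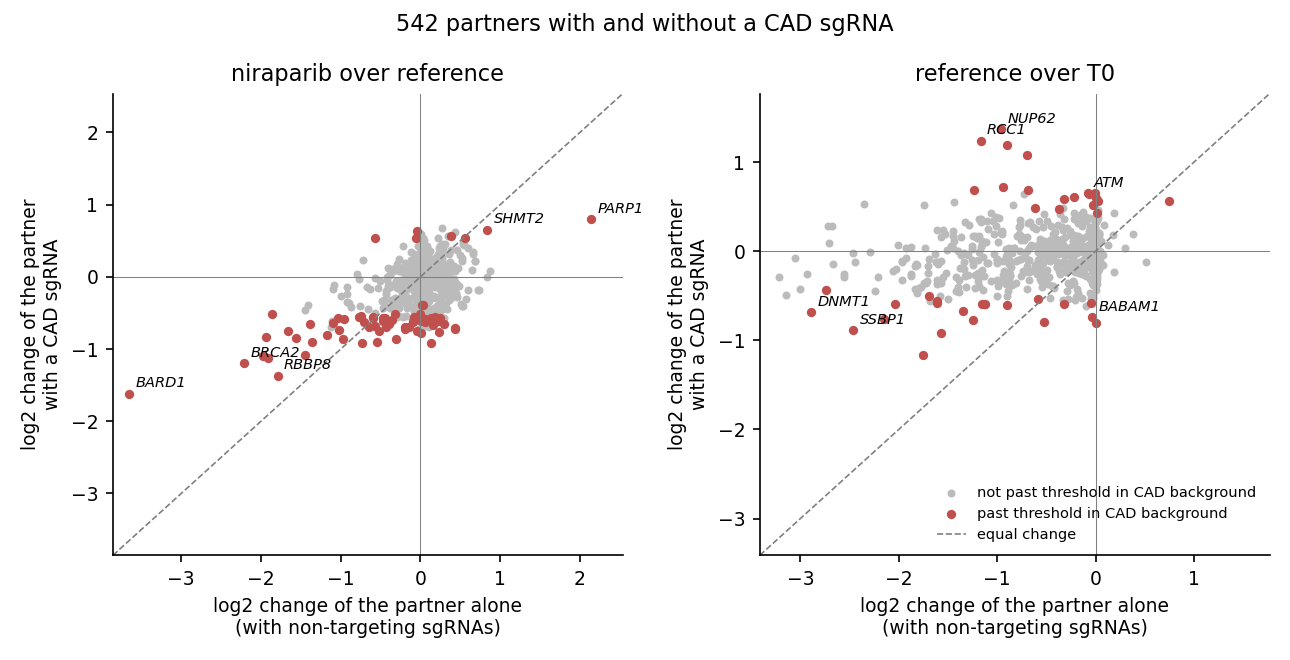
Log2 change of 542 partners with a CAD sgRNA (vertical) against their change alone, with non-targeting sgRNAs (horizontal), for niraparib over reference (left) and reference over T0 (right); red points passed the threshold in the CAD background and the dashed line marks equal change. Growth effects on the right collapse towards 0 beside CAD, and on the left BARD1 (-1.62 against -3.66) and PARP1 (0.80 against 2.14) lie between 0 and the line.

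A least-squares slope of the change beside CAD on the change alone, over 535 partners with at least 240 summed T0 reads on average, put a number on this shrinkage. It is a description, and 1 would mean the same effect in both backgrounds. For growth the slope was 0.100, with 0.107, 0.121, 0.099 and 0.072 in the 4 cultures. For response it was 0.393 and for niraparib over T0 0.311. Over all 543 backgrounds the medians were 0.808 for growth, 0.848 for response and 0.780 for niraparib over T0.

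Backgrounds with strong growth loss had low slopes in general. Over the 20 next most depleted genes, the growth slope ran from -0.004 to 0.415 with a median of 0.169, and the response slope from 0.217 to 0.598 with a median of 0.369. CAD lay inside both ranges, as the 7th lowest growth slope and the 31st lowest response slope of 543. UMPS had slopes of 0.269 in growth and 0.449 in response, COQ2 of 0.399 and 0.561, and SHMT2 of 0.575 and 0.742. Counts fall with growth loss in all these backgrounds, and the part of depth in the slopes was not tested.

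**Figure D4:**
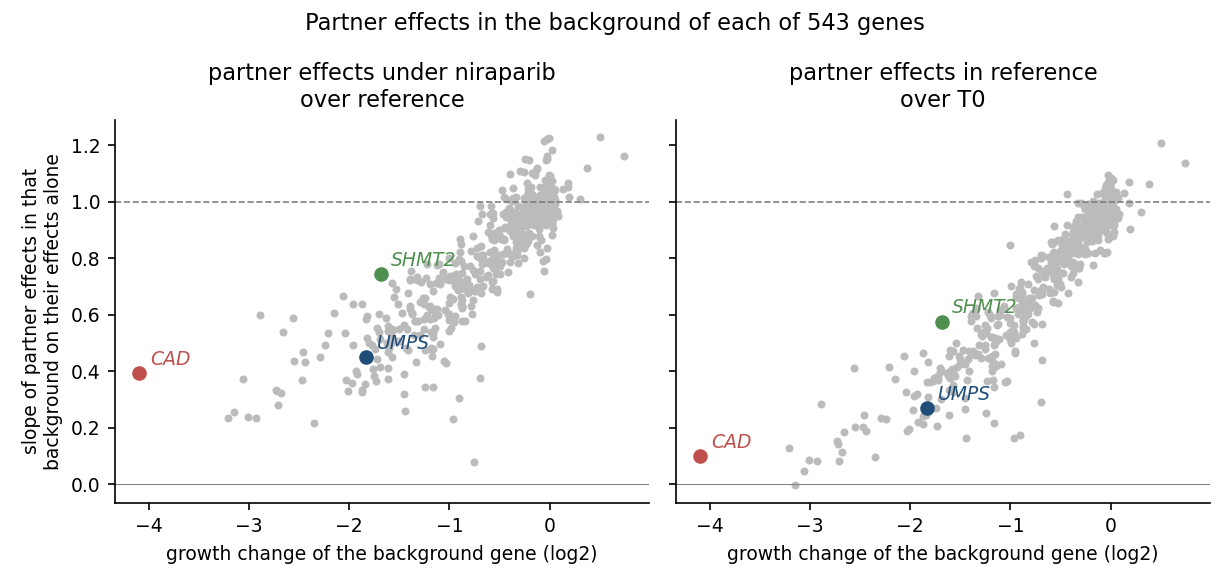
Slope of partner effects in the background of each of 543 genes on their effects alone, against the growth change of the background gene (log2), for niraparib over reference (left) and reference over T0 (right). CAD lies farthest left with slopes of 0.393 and 0.100, near the bottom of a cloud that falls with growth loss.

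Interaction scores take this shrinkage into account: for each sgRNA a curve through all its partners gives the expected change, and the score is the distance from it, negative where a pair was more depleted. In the limma test over 147044 gene pairs, 541 partners of CAD were tested. In the niraparib arm 40 were lower and 5 higher (8.32%), against 5.13% of all pairs, 2.63% lower and 2.5% higher. In the reference arm 8 were lower and 13 higher (3.88%), against 2.34% of all pairs, 1.28% lower and 1.06% higher. For the difference between the arms 5 were lower and 1 higher (1.11%), against 0.468% of all pairs, 0.252% lower and 0.216% higher. The median CAD score was -0.09 under niraparib and 0.01 in reference.

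These scores rest on few reads. Non-targeting sgRNAs, scored as partners of CAD, had an SD of 0.22 under niraparib and 0.27 in reference, and genes, with more constructs each, had 0.26 and 0.22. Non-targeting scores ran from -0.71 to 0.29 under niraparib, -0.90 to 0.51 in reference and -0.60 to 0.82 for the difference. Every lower gene score in reference lay inside that range, the lowest at -0.65. The scores of the first and second CAD sgRNA correlated with r = 0.349 under niraparib and r = -0.008 in reference, over 539 partners that share all libraries. Without 1 culture, 12 to 22 partners passed under niraparib, 1 to 5 in reference and 0 for the difference.

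Of the partners past the threshold under niraparib, the lowest scores were those of TRAIP (-0.90 ± 0.42; SD, n = 4), RIF1 (-0.89 ± 0.48), the proteasome subunit PSMB5 (-0.89 ± 0.35), DCTN5 of dynactin (-0.87 ± 0.46) and POP5 of RNase P and MRP (-0.81 ± 0.18). POP5 gave -0.68, -1.06, -0.68 and -0.83 (limma adjusted p = 0.00552) and passed without any single culture. TRAIP, RIF1, PSMB5 and DCTN5 each lost the call without at least 1 culture. Of 8 CAD constructs each, 4 of PSMB5 and 3 of DCTN5 averaged under 30 T0 reads and did not enter the scores. Other listed genes with lower scores were the checkpoint genes RAD9A and CLSPN (2 of 11 listed), the replication factors MCM10, RFC4 and RFC5 (3 of 23) and FANCL (1 of 14 Fanconi anemia genes). POLR1B and RRP12 of ribosomal RNA synthesis and processing (2 of 6), and NAMPT and NMNAT1 of NAD synthesis (2 of 7 on the PARP list), were also lower. Over all partners 40 of 541 were lower, so with so few members most of these counts are near that share. By this score, 0 of 22 homologous recombination and 0 of 4 base repair genes passed.

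Of those past the threshold, the highest niraparib scores were those of ADPRM (0.61 ± 0.19), GEMIN2 (0.49 ± 0.20), DENR (0.28 ± 0.08), MED15 of Mediator (0.27 ± 0.04) and FAM175A, the BRCA1-A scaffold also called ABRAXAS1 (0.26 ± 0.10). ADPRM gave 0.81, 0.73, 0.47 and 0.44 and passed without any single culture (limma adjusted p = 0.0111). MED15 and DENR, like FAM175A, were past the threshold with values near the SD of non-targeting sgRNAs, and each lost the call whichever culture was left out. GEMIN2 lost it without 2022 replicate 1 (0.49), 2022 replicate 2 (0.45) or 2023 replicate 1 (0.42).

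In reference, the partners with lower scores included SLX4 (-0.58 ± 0.28), the Fanconi core subunit FANCG (-0.42 ± 0.19), BABAM1 (-0.42 ± 0.18), MCM2 (-0.37 ± 0.13), the growth factor gene FGF16 (-0.30 ± 0.09), MCM6 (-0.30 ± 0.09) and the proteasome subunit PSMD13 (-0.27 ± 0.09). MCM2 turned positive with a T0 minimum of 100 reads (0.21) and with CAD in the first position only (0.10). MCM6 turned positive with that minimum (0.09) and with the first CAD sgRNA only (0.05). FANCG (0.08) and PSMD13 (0.03) did so with 10 added to each count. On either side, the largest that did not pass were the deadenylase scaffold CNOT1 (0.75 ± 0.49) and the primase subunit PRIM2 (0.70 ± 0.59), with limma adjusted p-values of 0.0793 and 0.134. The lowest scores that did not pass were MED19 (-0.65 ± 0.44), SLFN11 (-0.53 ± 0.32) and the centromere protein gene CENPF (-0.47 ± 0.50), with limma adjusted p-values of 0.089, 0.0721 and 0.21. Of 8 CAD constructs each, 5 of PRIM2, 3 of CNOT1, 3 of SLFN11 and 2 of SLX4 averaged under 30 T0 reads and did not enter the scores.

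The highest of the partners past the threshold were RBM8A (1.02 ± 0.48) and RCC1 (0.97 ± 0.34), on 2 of 8 and 1 of 8 constructs. The stress granule protein G3BP1 (0.64 ± 0.27), ATM (0.56 ± 0.17), FAM19A2 (0.53 ± 0.23), the nonsense-mediated decay factor SMG5 (0.50 ± 0.15), SMC6 of the SMC5-SMC6 complex (0.49 ± 0.24), the glycosylation enzyme ALG1 (0.47 ± 0.18) and C7orf26 (0.45 ± 0.20) were also higher. SMG5 turned negative with a T0 minimum of 100 (-0.01) and SMC6 with a straight line in place of the curve (-0.09). ATM gave 0.61, 0.35, 0.51 and 0.75 (limma adjusted p = 0.0206).

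Between the arms, LIN52 of the DREAM complex (-0.91 ± 0.26), the nuclease GEN1 (-0.69 ± 0.20), the NAD synthesis enzyme NMNAT1 (-0.61 ± 0.14), SDAD1 of ribosome assembly (-0.61 ± 0.19) and the ubiquitin ligase CBL (-0.44 ± 0.09) were lower under niraparib than in reference, and ASCC3, a helicase of ribosome rescue and alkylation repair, was higher (0.52 ± 0.10; limma adjusted p = 0.0304). The largest differences did not pass: RBM8A (-1.22 ± 0.64), RCC1 (-1.19 ± 1.13) and PRIM2 (-1.12 ± 1.14), with limma adjusted p-values of 0.107, 0.311 and 0.343. The highest differences that did not pass were SSBP1 (0.81 ± 0.90), the translation factor EIF4G1 (0.77 ± 0.54) and SHMT2 (0.61 ± 0.31), with limma adjusted p-values of 0.385, 0.195 and 0.11. UMPS scored 0.11 under niraparib and -0.17 in reference, with a difference of 0.28 (limma adjusted p = 0.691, 0.503 and 0.186).

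**Figure D5:**
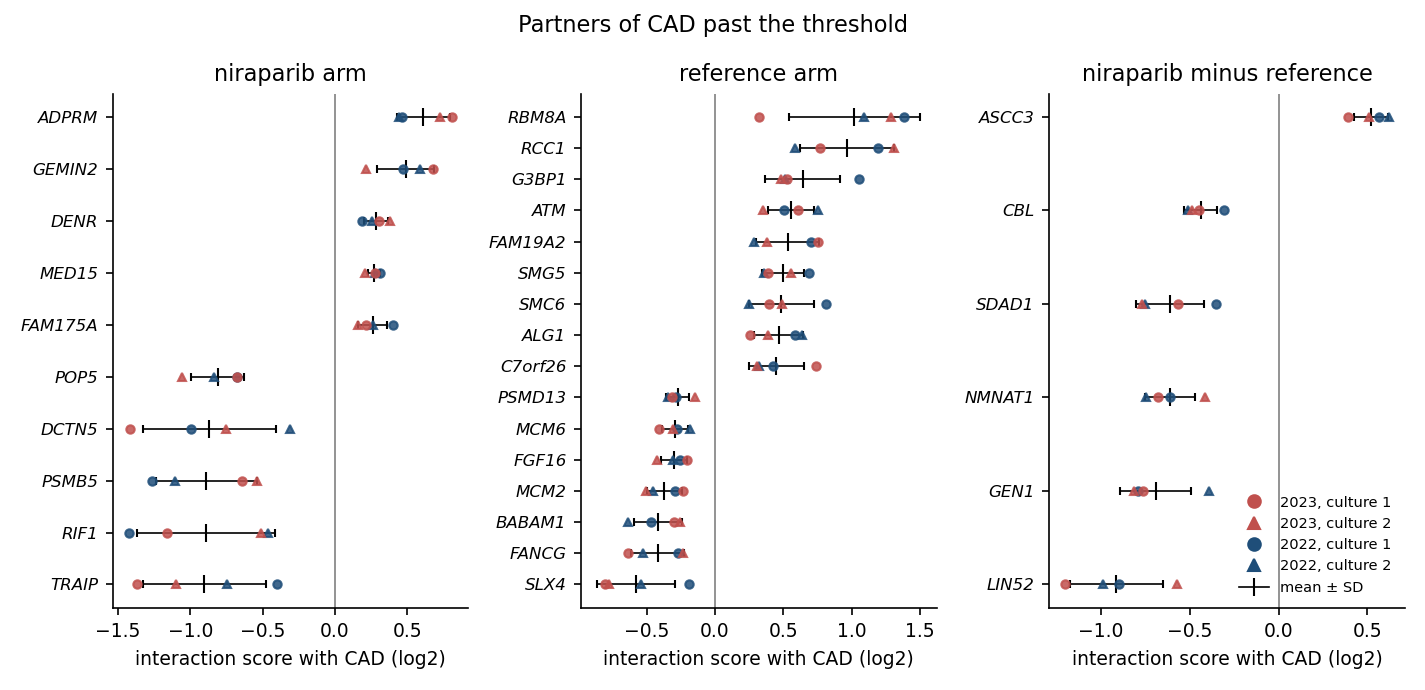
Interaction scores with CAD (log2) of the partners named in the text as past the threshold, in the niraparib arm (left), the reference arm (middle) and as niraparib minus reference (right); points are the 4 cultures and bars the mean ± SD. All 4 cultures have the same sign for each partner shown, from -0.90 for TRAIP to 0.61 for ADPRM under niraparib.

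Genes whose reference scores over partners were most like those of CAD were MCM3 (Pearson r = 0.250), the succinate dehydrogenase subunit SDHC (r = 0.243), RPTOR of mTORC1 (r = 0.238), POP5 (r = 0.234), SDAD1 (r = 0.231), RNGTT (r = 0.228), RSL1D1 (r = 0.227) and WDR74 (r = 0.224), over 539 or 540 partners. UMPS came 10th with r = 0.215, COQ2 116th with r = 0.122 and SHMT2 359th with r = 0.028. By screen, r for UMPS was 0.069 in 2023 and 0.174 in 2022. The reference scores of CAD itself correlated with r = -0.008 between its sgRNAs and r = 0.207 between the screens. The order of genes therefore rests on scores that repeat poorly. All of these gene correlations are weak, over partners that share libraries and depth, and are given as a description.

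At the edge of the T0 minimum, 3 CAD constructs averaged 30.0 T0 reads and 7 averaged 29.75. Those just inside had 0 to 18 reads in niraparib libraries and 0 to 20 in reference libraries, and those just outside 0 to 23 and 0 to 36.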

How the data were processed

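The deposited count tables hold reads per construct as whole numbers, 1 column per library, and the authors' phenotype tables hold log2 values; both were made by the authors, with Bowtie2 2.3.4.1 named per the submitters' processing notes and no role given there. Single genes were summed over 220 constructs with non-targeting sgRNAs and fitted with edgeR 4.0.16 (quasi-likelihood, R 4.3.3), with the sum of non-targeting pairs as library size, a block per culture and a term per arm within each screen, adjusted by Benjamini-Hochberg over 598 features at 0.05. Interaction scores added 1 to each count, used a curve of degree 2 per sgRNA, and were tested with limma 3.58.1. Alternatives included DESeq2 1.42.0, TMM, other minimums and left-out cultures. Of these steps, only the reference interaction scores with their limma test and the edgeR growth contrast on summed counts were tested on simulated data.

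CAD, the gene lists and the naming rule were chosen with earlier results of these data known. The rule took the 10 lowest and 10 highest reference scores past the threshold, the 5 lowest and 5 highest otherwise, the 8 genes most like CAD, the 5 growth neighbours and the listed pathway genes. Some partners that the rule takes are not reported here. The fit in the CAD background, the slopes and the screen difference were added after the data were seen. Each culture gave 1 library per arm, per the labels, which pairs the arms. Replicate differences correlated weakly between arms (r = 0.0319 to 0.0813). The labels call the cultures biological replicates. The edgeR p-values measure the spread between 2 of them per screen. The limma p-values as reported come from a fit with no term for screen, so their error also holds the difference between the screens. No cell type markers applied, since no RNA was measured.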

Additional observations from a re-analysis of the deposited data

Results flagged for a closer look

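UMPS growth differed between the screens by a test of the difference itself: -2.01 in 2023 and -1.65 in 2022, a difference of -0.36 (edgeR adjusted p = 0.00227, lower in both 2023 cultures than in both 2022 cultures). Of all genes, 31.1% passed this contrast, 30.0% lower and 1.1% higher in 2023. CAD growth, given without a test, had a difference of -0.57. Harvest was on day 19 in 2023 and day 18 in 2022, and the part of this in the difference was not tested.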

How the results depend on the processing

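Over all results and alternatives, 1281 values were alike in direction and call (or within their error). Of the changes, a lost call was the most frequent. It was more frequent than the 212 values that moved, the 39 that turned sign and the 4 that gained a call. The cause of a change was not tested. CAD growth was -3.64 under TMM, -3.70 under DESeq2's size factors and -3.18 as a median over constructs with 10 added, and -4.12 to -4.06 without 1 culture. Niraparib over T0 was -2.81 under either scaling, -2.70 as that median, -3.13 with the first sgRNA, -3.37 with the second, and -3.30 to -3.20 without 1 culture. Response was 0.48 as that median, -0.69 scaled to the authors' constants and 0.77 to 0.92 without 1 culture. Genes past the threshold numbered 425 to 497 in growth, 457 to 490 over niraparib and T0 and 380 to 472 in response without 1 culture.

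TMM moved the median of all genes by 0.45 in growth and DESeq2 by 0.39. TMM moved the split of growth calls to 259 lower and 250 higher (DESeq2 275 and 236), against 81.0% and 4.24% of genes as reported, and of niraparib over T0 to 294 and 229 (DESeq2 296 and 222). Under TMM and DESeq2, growth was 0.43 and 0.36 for DNPH1 and 0.13 and 0.064 for PRPS1, and niraparib over T0 was 0.43 and 0.43 for SLFN11, 0.36 and 0.35 for PRPS1 and 0.12 and 0.11 for MTHFD1L. SLFN11, near 0 throughout, also turned in growth with first positions (-0.015), the first sgRNA (-0.017), 2023 alone (-0.0066) and without 2023 replicate 1 (-0.0083), over niraparib and T0 with second positions (0.0067), the second sgRNA (0.0060), 2022 alone (0.012) and without 2022 replicate 2 (0.0027), and in response with 2022 alone (0.0015), without 1 culture (-0.018 to 0.00066) and under DESeq2 (0.035).

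Partners past the threshold in reference scores numbered 21 as reported, 58 with 10 added, 13 with a T0 minimum of 100, 11 with 30 in each screen, 111 with a straight line, 40 with the CAD curve alone, 0 in either screen alone, 308 in the additive count model and 1 to 5 without 1 culture. In niraparib scores they numbered 45 as reported, 93, 91 with a straight line, 10 in 2022, 11 in 2023, 288 additive and 12 to 22 without 1 culture. For the difference they numbered 6 as reported, 3 with screen as a term, 3 with the minimum of 100, 0 in either screen, 90 additive and 0 without 1 culture. Where there were 0 calls, limma gave 160 to 182 partners at unadjusted p under 0.05 for the difference without 1 culture, 204 and 195 in 2023 and 2022, and 168 and 205 for reference scores in 2023 and 2022. The signs of MCM2 (2.69), MCM6 (1.37) and PSMD13 (0.050) in reference, TRAIP (0.043), RIF1 (0.18), DCTN5 (1.12) and POP5 (0.36) under niraparib, and NMNAT1 (0.11) and ASCC3 (-0.10) for the difference turned in the additive model, which has no curve. Other turned signs were those given above: MCM2 0.21 and 0.10, MCM6 0.095 and 0.055, SMG5 -0.0081, SMC6 -0.085, FANCG 0.081 and PSMD13 0.028.

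In the CAD background, growth calls (40) were 21 and 9 with the first and second sgRNA, 25 and 2 with CAD first and second in order, 0 in 2023 (68 at unadjusted p under 0.05 by edgeR) and 22 in 2022, and 0 to 32 without 1 culture. Calls over niraparib and T0 (94) were 31, 34, 11 with CAD second, 19 in 2022, 38 in 2023 and 27 to 70 without 1 culture. Response calls (68) were 42 under TMM, 16, 29, 31 and 0 by sgRNA and order (98 at unadjusted p under 0.05 by edgeR for the last), 14 in 2022, 9 in 2023 and 7 to 61 without 1 culture. The growth slope was 0.129 and 0.063 by sgRNA. Without 1 culture the slopes were 0.092 to 0.109 in growth, 0.293 to 0.329 over niraparib and T0 and 0.368 to 0.406 in response, and the screen difference was -0.64 to -0.51 in growth and 0.37 to 0.68 in response. By order, with CAD first and second, the screen difference in growth was -0.50 and -0.67.

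Replicate numbers pair the libraries of a culture. With no replicate block, CAD growth was -4.09, 465 genes passed in growth, 480 over niraparib and T0 and 438 in response, and 38, 91 and 60 partners passed in the CAD background.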
